A study of Mus musculus with 12 samples.

Results

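Cluster 2 is 1 of the groups, numbered 0 to 8, into which the authors had divided the gene expression profiles of sorted splenic CD8+ T cells. Described here are its cells from the effector (Teff) sorts, taken from the deposited cell table by library name and cluster number. They numbered 22840 of 100540 cells in the series, 12628 from mice given an antibody to CD137 and 10212 from mice given a control immunoglobulin (Ig). Nearly all cells of the cluster were Teff cells: 55.1% of its 22924 cells came from the anti-CD137 Teff library and 44.5% from the Ig control Teff library. Cluster 0, the other large cluster of the Teff libraries, is used for comparison, with 11939 cells from anti-CD137 mice and 12962 from Ig control mice.

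All mice were wild-type C57BL/6. In the anti-CD137 group, 5 mice were given 10 µg of clone 3H3, and in the control group 10 mice were given 100 µg of the Ig clone HRPN, so that antibody amounts differed between the groups. Both were given 2 injections a week for 14 days. Teff cells were spleen T cells sorted for high CD44 and no PD1, and from each treatment 1 library was made for 5′ gene expression and 1 for chains of the T cell receptor (TCR). Cells were not tied to single mice, so no value below has a replicate check and none was tested. Intervals are 95% intervals that cover counting error only, exact binomial ones for shares and ones built from these for differences, and cells of 1 mouse or clone are not independent.

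CD44 rises on T cells that have met antigen or have been driven by cytokines, and PD1, an inhibitory receptor, marks T cells under continuing stimulation. A PD1-negative CD44-high spleen population of unchallenged mice is known to include memory-like cells that never met foreign antigen. CD137 (4-1BB) is a costimulatory receptor of activated T cells. The TCR of a CD8 cell pairs an alpha chain (TRA), joined from a V and a J segment, with a beta chain (TRB), joined from V, D and J. The join, called CDR3, is trimmed and filled with untemplated bases, so that most receptors occur in few cells, and a recurring base sequence of both chains usually marks a clone. Levels of single genes were not analysed here, so the cluster could not be checked against CD8 or effector marker genes and is called by its number. An alpha or beta chain was assembled in 88.8% of its anti-CD137 cells and 88.4% of its Ig control cells.

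The sequences shown first are the largest clones read within cluster 2 of each library, since they show in how few of its cells those clones were read. A clonotype is the pair of CDR3 base sequences of a cell's leading TRB and TRA, those with the most unique molecular identifiers (UMIs). Capitals mark bases that match neither the germline V nor the germline J segment, and lower case marks bases that match. D segments were not matched, so capitals in a TRB can include D bases. All TRB chains come from chromosome 6 and all TRA chains from chromosome 14. Anti-1 to Anti-3 are from the anti-CD137 library and Ig-1 to Ig-3 from the Ig control library.
Anti-1 TRB, TRBV13-3 with TRBJ1-1: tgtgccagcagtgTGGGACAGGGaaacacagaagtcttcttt
Anti-1 TRA, TRAV7D-2 with TRAJ22: tgtgcagcaagcagctggcaactcatcttt
Anti-2 TRB, TRBV14 with TRBJ1-2: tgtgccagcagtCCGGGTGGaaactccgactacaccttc
Anti-2 TRA, TRAV6D-6 with TRAJ30: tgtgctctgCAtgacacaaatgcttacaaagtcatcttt
Anti-3 TRB, TRBV20 with TRBJ2-7: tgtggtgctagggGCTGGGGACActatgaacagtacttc
Anti-3 TRA, TRAV8D-2 with TRAJ15: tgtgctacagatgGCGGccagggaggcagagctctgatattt
Ig-1 TRB, TRBV5 with TRBJ1-6: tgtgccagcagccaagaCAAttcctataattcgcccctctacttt
Ig-1 TRA, TRAV3N-3 with TRAJ15: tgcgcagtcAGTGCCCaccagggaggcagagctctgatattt
Ig-2 TRB, TRBV12-2 with TRBJ1-1: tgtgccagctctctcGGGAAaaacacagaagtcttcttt
Ig-2 TRA, TRAV7-5 with TRAJ32: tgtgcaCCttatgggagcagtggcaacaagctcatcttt
Ig-3 TRB, TRBV16 with TRBJ2-5: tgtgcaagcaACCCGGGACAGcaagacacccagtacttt
Ig-3 TRA, TRAV14-2 with TRAJ30: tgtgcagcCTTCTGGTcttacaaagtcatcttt

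The next set is the beta chain CDR3s whose encoded residues recurred in most cells of cluster 2 among those found in both treatments. The match was by CDR3 residues alone, whatever the V segment. Public-1 was read with 2 TRBV names, Public-2 with 7 and each of the other 4 with 5. Each line gives the commonest base version and its segments. That version was read in 9 cells for Public-1, 4 for Public-2, 3 for Public-6 and 2 for each of the others. Public-1 was read in 15 anti-CD137 and 5 Ig control cells in 7 base versions, beside 20 different TRA base sequences. Public-2 was read in 9 anti-CD137 and 8 Ig control cells in 10 base versions, beside 17 different TRA. The other 4 were read in 10 cells each, beside 10 different TRA, so that none of the 6 was 1 clone.
Public-1, TRBV12-2+TRBV13-2 with TRBJ2-3: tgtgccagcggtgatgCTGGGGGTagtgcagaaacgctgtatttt
Public-2, TRBV12-2 with TRBJ2-7: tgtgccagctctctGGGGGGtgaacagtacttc
Public-3, TRBV16 with TRBJ2-1: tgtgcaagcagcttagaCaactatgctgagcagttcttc
Public-4, TRBV12-2 with TRBJ2-1: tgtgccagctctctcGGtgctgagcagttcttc
Public-5, TRBV16 with TRBJ2-1: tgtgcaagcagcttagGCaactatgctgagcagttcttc
Public-6, TRBV16 with TRBJ1-1: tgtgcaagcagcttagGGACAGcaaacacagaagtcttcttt
The versions shown hold between 1 and 8 non-germline bases, D segment bases included.

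Cells of cluster 2 carried more RNA than those of cluster 0. The median UMI count was 4925 in anti-CD137 cells (quartiles 3934 and 6427) and 5336 in Ig control cells (4229 and 6765). In cluster 0 it was 3264 in anti-CD137 and 3354 in Ig control cells. The number of genes with a UMI had a median of 1702 in anti-CD137 and 1809 in Ig control cells of cluster 2, against 1281 and 1310 in cluster 0 of the same libraries. Clusters had been built from these counts, so the contrast with cluster 0 is a description. Within both libraries the share of Teff cells in cluster 2 climbed with depth up to 10000 UMIs and was lower again above that. At up to 2500 UMIs it was 8.37% in the anti-CD137 and 6.72% in the Ig control library, and between 5000 and 7000 UMIs it was 71.1% and 62.8%.

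Cluster 2 held 45.1% of the anti-CD137 Teff library (44.5 to 45.6) and 39.4% of the Ig control one (38.8 to 40.01), a difference of 5.64 percentage points (4.81 to 6.48). The shares of cluster 0 lay the other way, 42.6% with anti-CD137 and 50.02% with Ig control. Below 7000 UMIs the cluster 2 share was higher with anti-CD137 in each of the bins shown, and above 7000 UMIs it was lower, 71.5% against 74.0% and then 60.5% against 70.7%. Among cells with both receptor chains the difference was 2.84 points. Beside that value, 67.9% of cluster 0 cells had both chains in the anti-CD137 library, against 59.7% in the Ig control library.

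**Figure D1:**
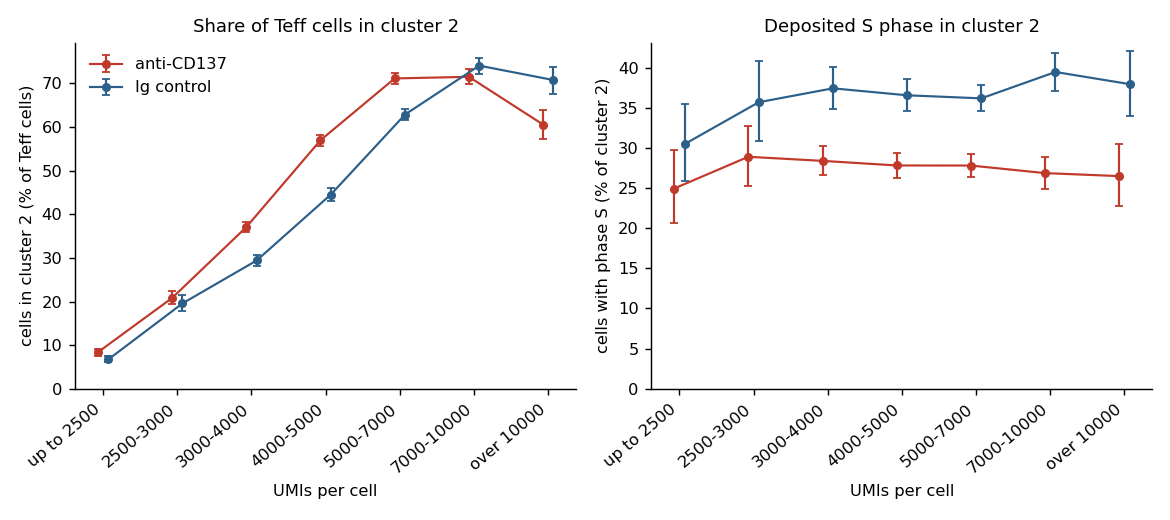
Share of Teff cells in cluster 2 (left) and share of cluster 2 cells with the deposited phase S (right), both in percent, by bin of UMIs per cell, for the anti-CD137 and the Ig control library. Points are single libraries and bars are exact 95% binomial intervals. The cluster 2 share climbs with depth in both libraries, and the S phase share is lower with anti-CD137 in all 7 bins.

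Messages of ribosomal proteins, the parts of the machine that makes protein, took a median of 39.2% of UMIs in anti-CD137 cells (quartiles 35.7 and 42.1) and 38.1% in Ig control cells of cluster 2 (34.6 and 41.3). Cluster 0 had 38.3% with anti-CD137 and 37.2% with Ig control. The treatments thus differed by 1.09 points in cluster 2 and 1.11 points in cluster 0, far less than the spread between cells. As a mean over UMI bins the gap was 1.17 points in cluster 2 and 0.56 points in cluster 0. In cluster 2 anti-CD137 was lower up to 2500 UMIs (33.9% against 34.2%) and above 10000 UMIs (38.1% against 38.3%), and higher in the bins between. Mitochondrial messages had a median of 1.68% in anti-CD137 cells (1.29 and 2.10) and 2.32% in Ig control cells of cluster 2 (1.90 and 2.80). A gap of like size stood in cluster 0, with 1.66% with anti-CD137 and 2.26% with Ig control.

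The deposited scores rate each cell on genes of DNA synthesis (S) and of the phase before and during division (G2M). A cell was labelled G1 where neither score was above 0. The median S score of cluster 2 was -0.027 with anti-CD137 and -0.013 with Ig control, and the median G2M score was -0.059 and -0.052. Phase S was given to 27.7% of anti-CD137 cells (26.9 to 28.5) and 36.8% of Ig control cells (35.9 to 37.8), a difference of -9.16 points (-10.4 to -7.94). G2M was given to 7.25% of anti-CD137 and 7.99% of Ig control cells.

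The gap in S labels was present in each UMI bin, where 24.9 to 28.9% of anti-CD137 and 30.5 to 39.4% of Ig control cells were labelled S, and its mean over bins was -9.23 points. Cluster 0 had the gap too, with 32.6% in the anti-CD137 and 40.2% in the Ig control library. Many cells lay near the boundary of these labels: the higher score was within 0.02 of 0 in 32.6% of anti-CD137 and 36.6% of Ig control cells of cluster 2. A score above 0.2 was reached by 143 anti-CD137 cells (1.13%, 0.955 to 1.33) and 138 Ig control cells (1.35%, 1.14 to 1.59), and that difference included 0. No gene of the cell cycle was read, and no cycling is inferred from these labels.

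Both chains were read in 9736 anti-CD137 cells of cluster 2 (77.1%, 76.4 to 77.8) and 7888 Ig control cells (77.2%, 76.4 to 78.1), a difference of -0.14 points (-1.24 to 0.96). By depth the libraries differed both ways: 53.4% with anti-CD137 and 41.2% with Ig control up to 2500 UMIs, 64.5% and 48.1% from there to 3000, 77.1% and 82.3% between 7000 and 10000, and 46.1% and 64.1% above 10000. Cluster 0 had fewer, 67.9% with anti-CD137 and 59.7% with Ig control. A TRB alone was read in 9.88% of anti-CD137 and 9.44% of Ig control cells of cluster 2, a TRA alone in 1.83% and 1.67%, and no chain in 11.2% and 11.6%. The share with no chain was high at both ends of depth. It was 21.4% with anti-CD137 and 43.9% with Ig control up to 2500 UMIs. Between 7000 and 10000 UMIs it was 21.3% and 14.3%, and above 10000 UMIs 53.7% and 35.2%. The leading TRB had a median of 9 UMIs and the leading TRA 4 UMIs in both libraries, and the reads behind the leading TRB had a median of 1359 with anti-CD137 and 1913 with Ig control.

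Most T cells express a single beta chain. A second TRB was read in 23.8% of paired anti-CD137 cells (23.0 to 24.7) and 21.5% of paired Ig control cells (20.6 to 22.4), against 11.1% and 10.7% in cluster 0. This share followed depth. Between 4000 and 5000 UMIs it was 9.57% with anti-CD137 and 6.99% with Ig control, between 7000 and 10000 UMIs 68.8% and 53.1%, and above 10000 UMIs 78.7% and 77.7%. A second TRB and a second TRA together were read in 45.0% of paired anti-CD137 and 41.9% of paired Ig control cells above 10000 UMIs. In the 3 shallowest bins the order of the libraries was the other way: 5.08% with anti-CD137 and 17.0% with Ig control up to 2500 UMIs, 4.97% and 11.2% up to 3000, and 6.35% and 7.82% up to 4000. Barcodes that held 2 cells were not removed here, and their part in these shares was not tested.

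**Figure D2:**
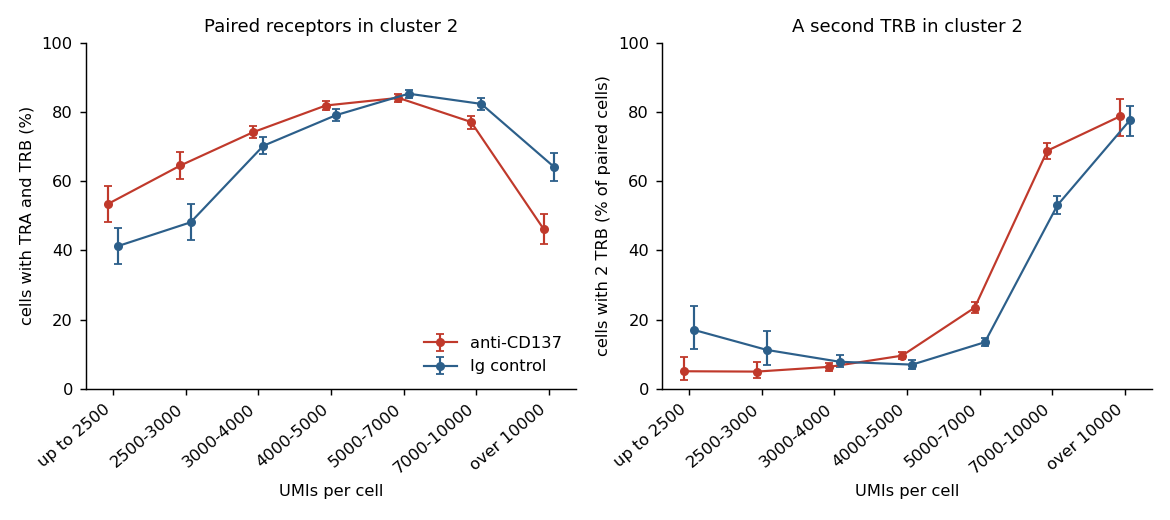
Share of cluster 2 cells with both TRA and TRB (left) and share of paired cells with a second TRB (right), in percent, by bin of UMIs per cell, for the anti-CD137 and the Ig control library. Bars are exact 95% binomial intervals. Pairing is highest between 5000 and 7000 UMIs, at 84.1% with anti-CD137 and 85.3% with Ig control, and the second TRB becomes common above 7000 UMIs.

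Nearly all paired cells of cluster 2 carried a clonotype read in no other cell of the cluster. These are counts among the cells read, and the size of the clones in the mice was not measured. Its 9736 paired anti-CD137 cells held 9686 clonotypes, of which 9636 were in 1 cell and 50 in 2 cells. Its 7888 paired Ig control cells held 7837 clonotypes, 7788 of them in 1 cell, 47 in 2 cells and 2 in 3 cells. Cells in clonotypes of at least 2 cells were 100 in each library, 1.03% of anti-CD137 cells (0.836 to 1.248) and 1.27% of Ig control cells (1.03 to 1.54).

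Reduced to the 7744 paired cells of the smallest of the 4 sets compared, the expanded share was 0.814% with anti-CD137 and 1.24% with Ig control, a difference of -0.43 points (-0.76 to -0.10). Intervals of expanded shares, here and below, count cells as independent. Expanded cells come in sets of at least 2 by definition, so these intervals are too narrow, and whether this one leaves out 0 is not settled. Even so, the interval included 0 without that reduction (-0.24 points, -0.57 to 0.08) and among cells with at most 1 TRB (-0.26 points). It also did where the TRB had at least 5 UMIs and the TRA at least 3 (-0.12 points). In cluster 0, 54 cells (0.666%) were expanded in the anti-CD137 library and 249 cells (3.22%, 2.83 to 3.63) in the Ig control library. With anti-CD137 the share in cluster 2 minus that in cluster 0 was 0.36 points over all paired cells (0.08 to 0.64) and 0.18 points in 7744 cells of each (-0.10 to 0.46).

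Among clonotypes of equal size in cluster 2, those shown had been taken by their size in the whole Teff library, so that cells elsewhere follow from the choice. Anti-1 had 12 Teff cells, 2 of them in cluster 2, and Anti-2 had 6 and Anti-3 had 5, again with 2 each in cluster 2, with the others in clusters 1 and 6. Ig-1 and Ig-2 had all 3 of their Teff cells in cluster 2, and Ig-3 had 2 of 3 there. None of the 6 was read in the PD1+ sorts or in the other treatment.

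Few clonotypes of cluster 2 were read elsewhere. In cluster 0 of the same library they were found for 27 anti-CD137 cells (0.277%) and 34 Ig control cells (0.431%). In Teff cluster 6 they were found for 31 anti-CD137 cells (0.318%, 0.216 to 0.452) and 5 Ig control cells (0.063%, 0.021 to 0.148), a difference of 0.26 points (0.12 to 0.39). Cluster 6 itself held 860 paired cells with anti-CD137 and 361 with Ig control, so more cells were searched in the first. For cluster 0 cells the count found in cluster 6 was 3 with anti-CD137 and 1 with Ig control. In the other Teff clusters the counts went either way. Cluster 1 held clonotypes of 17 anti-CD137 and 5 Ig control cells of cluster 2 (0.111 points, -0.000 to 0.224; 600 and 478 paired cells searched). Cluster 7 held those of 0 anti-CD137 and 5 Ig control cells (-0.063 points, -0.148 to -0.006; 387 and 451 searched), and cluster 5 those of 0 and 2. Over all Teff clusters other than 0 and 2 the difference was 0.16 points (-0.02 to 0.33).

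Sharing with the PD1+ sorts of the same treatment was near the lower limit of counting. Precursor exhausted cells (PD1+ Slamf6+ Tim3-) shared a clonotype with 4 anti-CD137 and 4 Ig control cells of cluster 2. For them 4471 paired cells were searched with anti-CD137 and 10041 with Ig control. Exhausted cells (PD1+ Slamf6- Tim3+) shared one with 7 anti-CD137 cells (0.072%, 0.029 to 0.148). They shared one with 0 of 7888 Ig control cells, with an exact upper bound of 0.047%. The difference was 0.072 points (0.008 to 0.148), with 4717 and 7778 paired cells searched. Over both PD1+ sorts the difference was 0.04 points (-0.05 to 0.13), and it was -0.37 points where the TRB alone defined a clone. Between the treatments, which shared no mouse, 1 cell of each library carried a clonotype found in the other Teff library.

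The leading V and J segments of cluster 2 had close shares in the 2 libraries. The most used TRBV of cluster 2 bore the combined name TRBV12-2+TRBV13-2, with 8.73% of paired anti-CD137 and 9.15% of paired Ig control cells. Over all libraries 99.6% of chains with that name carried the first loop (CDR1) of TRBV13-2, and counted with TRBV13-2 it made 9.92% of anti-CD137 and 10.0% of Ig control cells. TRBV12-2 followed with 8.72% and 8.68%, and TRBV16 with 8.24% and 8.05%. Among TRBJ segments TRBJ2-7 led with 21.8% of anti-CD137 and 22.0% of Ig control cells, before TRBJ2-1 with 14.6% and 14.0% and TRBJ2-5 with 11.2% and 11.4%. The leading TRAJ segments were TRAJ22 with 9.06% and 8.61%, TRAJ26 with 5.12% and 4.96%, and TRAJ30 with 4.97% and 4.93%. Among TRAV segments TRAV12-2 had 6.05% and 6.35%, TRAV12D-3 5.23% and 4.59%, and TRAV13-1 4.55% and 4.27%.

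A segment was counted as different where it made at least 1% of cells in either library and its ratio was at most 0.8 or, the other way up, at least the inverse of 0.8. Of 112 segments of cluster 2, 7 passed (6.25%), 2 higher (1.79%) and 5 lower (4.46%) with anti-CD137. In cluster 0, 4 of 110 passed (3.64%). TRAV7D-3 was at 1.15% with anti-CD137 (0.948 to 1.38) and 0.761% with Ig control (0.581 to 0.978), and in cluster 0 at 0.900% and 0.956%. TRAJ47 was at 1.57% with anti-CD137 (1.33 to 1.84) and 2.14% with Ig control (1.83 to 2.49), and in cluster 0 at 1.76% and 1.73%.

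The other 5 were smaller differences. TRBV13-2 under its own name was at 1.19% with anti-CD137 and 0.862% with Ig control, and the combined name holds most chains of this segment. TRAV4-4-DV10 was at 0.996% and 1.31%, TRAV16D-DV11 at 1.01% and 1.31%, TRAJ6 at 0.945% and 1.204% and TRAV13-2 at 1.38% and 1.72%, and for these 4 the interval of the difference included 0. Among cells with at most 1 TRB the difference of TRAV7D-3 was 0.31 points and its interval included 0 too (-0.02 to 0.64). Of all 7, 1 passed at a ratio of 1.5 or 2/3. TRAV copies with D or N in their names are near-identical duplicates, so that values for a single copy are uncertain.

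Between clusters 2 and 0 of the same library, 25 of 113 segments passed the rule in the anti-CD137 library (22.1%) and 21 of 111 in the Ig control library (18.9%). In both libraries and in the same direction 13 of 115 passed (11.3%), 8 higher (6.96%) and 5 lower (4.35%) in cluster 2. The clusters were made from gene counts of the same cells, and the sources used here do not say whether receptor genes were among the clustering genes, so these are descriptions. Among cells with at most 1 TRB 10 segments passed, 9 of them among the 13.

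TRBV12-2 (chr6:41118851-41119364, plus strand, GRCm38) had the widest gap of these 13 in percentage points. It made 8.72% of anti-CD137 cells (849 cells, 8.17 to 9.30) and 8.68% of Ig control cells of cluster 2 (685 cells, 8.07 to 9.33). In cluster 0 it made 5.85% with anti-CD137 (474 cells, 5.34 to 6.38) and 6.47% with Ig control (501 cells, 5.93 to 7.04). The ratio of cluster 2 over cluster 0 was 1.49 in the anti-CD137 library and 1.34 in the Ig control library. TRBV13-2, counted with its combined name, had no such gap, with 9.92% and 10.0% in cluster 2 and 9.74% and 9.44% in cluster 0.

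Among alpha chains, TRAV12-2 (chr14:53616315-53616914) made 6.05% of anti-CD137 and 6.35% of Ig control cells of cluster 2, against 4.75% and 4.33% in cluster 0. At 3000 to 7000 UMIs its difference was 0.78 points with anti-CD137, where the interval included 0 (-0.04 to 1.58). With Ig control it was 2.02 points (1.17 to 2.87). TRAV13-2 (chr14:53634829-53635399) made 1.38% and 1.72%, against 0.937% and 0.956%. TRAV13-1 made 4.55% and 4.27%, against 3.44% and 3.15%. The whole TRAV13 family, which avoids the question of duplicates, made 11.96% and 11.7% in cluster 2 and 9.72% and 9.10% in cluster 0. Its ratio was 1.23 with anti-CD137, which does not pass the rule, and 1.28 with Ig control. The whole TRAV12 family had ratios of 1.02 in both libraries. TRAV12-3 made 1.11% and 1.01% in cluster 2, against 1.43% and 1.32% in cluster 0, and the interval of its difference included 0 in both libraries.

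The segments lower in cluster 2 were few and modest. TRBV17 made 2.86% of anti-CD137 and 2.98% of Ig control cells, against 3.66% and 3.93% in cluster 0. TRAV3N-3 made 3.70% and 3.37% against 4.64% and 4.55%, TRAV6N-7 2.02% and 2.04% against 2.54% and 2.62%, and TRAJ7 2.02% and 1.90% against 2.57% and 2.61%. Among cells with at most 1 TRB the interval for TRAJ7 included 0 with anti-CD137 (-0.46 points, -0.96 to 0.03). At 3000 to 7000 UMIs the interval included 0 with anti-CD137 for TRBV17 (-0.52 points, -1.16 to 0.10) and TRAV3N-3 (-0.68, -1.42 to 0.05). With Ig control it included 0 there for TRAJ7 (-0.46 points, -1.02 to 0.09). For TRAV6N-7 it left out 0 in both libraries. No TRBJ segment of the 12 passed in either library, and the share of paired cells with a J of the TRBJ1 cluster was 31.3% with anti-CD137 and 31.5% with Ig control in cluster 2, beside 31.6% and 31.0% in cluster 0.

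**Figure D3:**
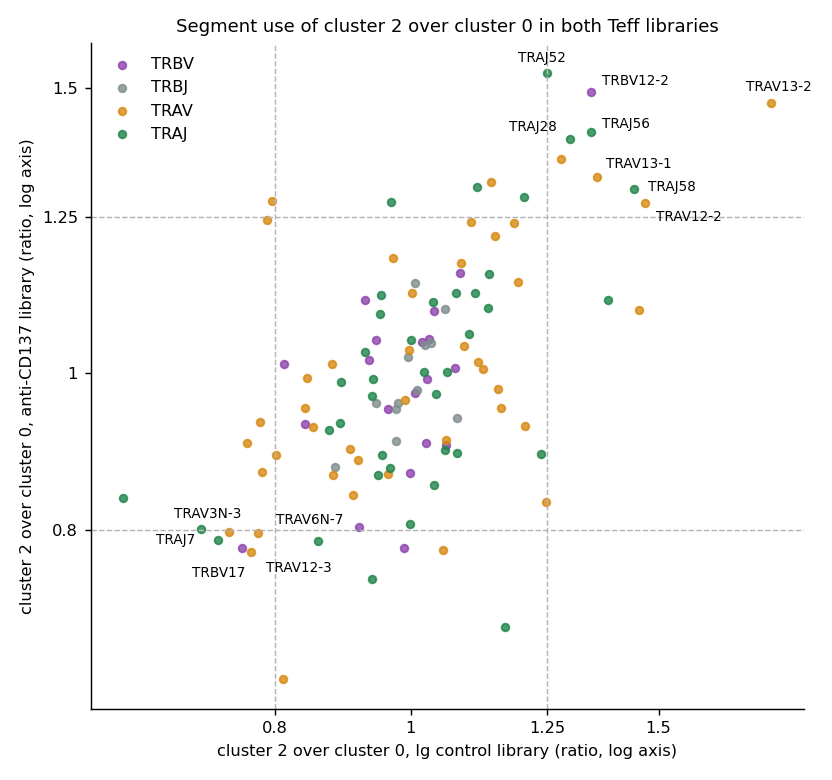
Ratio of the share in cluster 2 over the share in cluster 0 for each segment with at least 1% in any of the 4 sets, in the Ig control library (horizontal) and the anti-CD137 library (vertical), both on log axes. Dashed lines stand at 0.8 and its inverse, and the 13 segments past the rule in both libraries in the same direction are named; an unnamed point beyond both lines was under 1% in 1 library. TRBV12-2 lies at 1.49 with anti-CD137 and 1.34 with Ig control, while all TRBJ points lie inside the lines.

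Of the 8 segments higher in cluster 2, TRAJ52, TRAJ56, TRAJ58 and, beyond the 6 that the naming rule takes, TRAJ28 were J segments of the alpha chain. TRAJ52 made 2.02% of anti-CD137 and 1.71% of Ig control cells, against 1.32% and 1.37% in cluster 0. TRAJ56 made 1.98% and 2.12% against 1.41% and 1.57%, and TRAJ58 1.46% and 1.67% against 1.12% and 1.16%. The interval of the difference included 0 for TRAJ58 with anti-CD137 (0.34 points, -0.01 to 0.67) and for TRAJ52 (0.34 points, -0.05 to 0.74) and TRAJ28 with Ig control. TRAJ52, TRAJ56 and TRAJ58 lie at the end of the TRAJ array next to the V segments. That end is joined first while a thymocyte rearranges its alpha locus. TRAJ28 does not lie there but in the middle, at position 24 of 43 from the V side. TRAJ7 lies near the far end.

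Over the whole array the ratio tended to be lower further from the V side in both libraries. The rank correlation between position and ratio over 40 TRAJ segments was -0.62 with anti-CD137 and -0.48 with Ig control. It is given as a description since the segments share libraries. Grouped after the values were seen, the 11 segments from TRAJ58 to TRAJ44 (chr14:54157280-54173750) made 22.6% of anti-CD137 cells (21.8 to 23.5) and 23.9% of Ig control cells of cluster 2 (22.9 to 24.8). In cluster 0 they made 19.2% (18.4 to 20.1) and 20.997% (20.1 to 21.9). The gap was 3.37 points with anti-CD137 and 2.87 points with Ig control. The 10 segments from TRAJ15 to TRAJ2 (chr14:54204422-54217901) made 18.1% and 17.2% in cluster 2, against 20.9% and 19.9% in cluster 0. Between these ends there was no steady decline. The gap was -0.45 points with anti-CD137 and -0.68 with Ig control from TRAJ43 to TRAJ31. From TRAJ30 to TRAJ16 it was -0.12 and 0.51 points, and the intervals of both middle groups included 0. The same correlation for TRAV and TRBV segments was between -0.21 and 0.27.

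**Figure D4:**
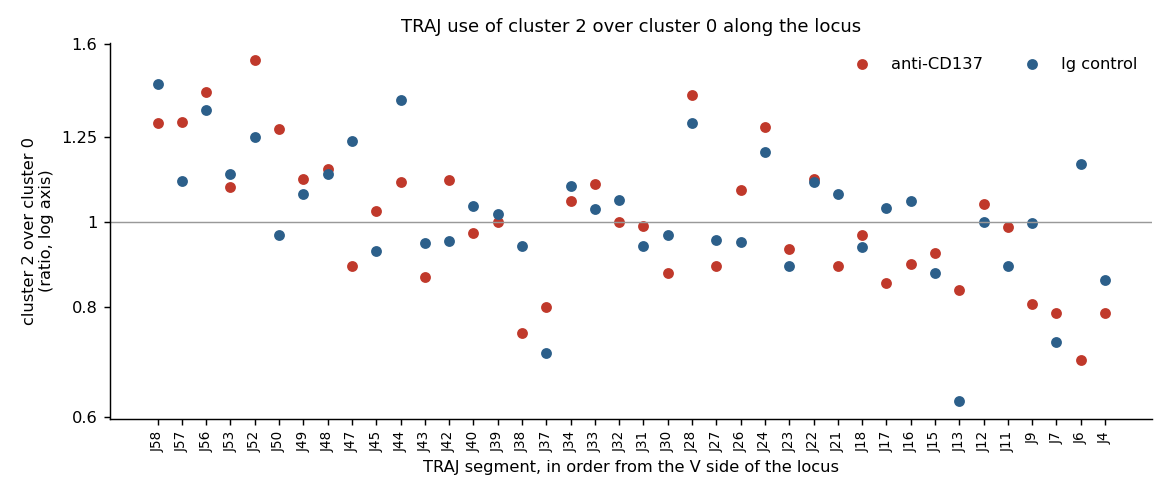
Ratio of the share in cluster 2 over the share in cluster 0 (log axis) for each TRAJ segment with at least 1%, in order from the V side of the locus, in the anti-CD137 and the Ig control library. TRAJ58 lies at 1.30 with anti-CD137 and 1.44 with Ig control, TRAJ56 at 1.41 and 1.34, and TRAJ7 at 0.79 with anti-CD137 and 0.73 with Ig control.

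The beta chain CDR3 was slightly shorter and closer to germline in cluster 2 than in cluster 0. Its length averaged 13.90 ± 1.44 residues in anti-CD137 cells (SD over 9736 cells) and 13.84 ± 1.45 in Ig control cells (SD over 7888 cells), against 13.97 ± 1.46 and 13.96 ± 1.47 in cluster 0. Chains of at least 16 residues were 11.5% with anti-CD137 (10.9 to 12.1) and 11.3% with Ig control (10.6 to 12.002), against 13.5% (12.7 to 14.2) and 13.1% (12.3 to 13.9). Non-germline bases, D segment bases included, averaged 9.87 with anti-CD137 and 9.71 with Ig control, against 10.15 and 10.08. Chains with at most 2 such bases were 2.83% (2.51 to 3.19) and 3.51% (3.11 to 3.95), against 2.36% (2.03 to 2.72) and 2.31% (1.97 to 2.67). The alpha chain held an average of 3.10 non-germline bases in each library of cluster 2, against 3.15 with anti-CD137 and 3.19 with Ig control in cluster 0.

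Encoded beta chain CDR3s, matched by residues and not by V segment, recurred more between the treatments in cluster 2 than in cluster 0. The encoded TRB CDR3 of a cluster 2 cell was also in cluster 2 of the other treatment, reduced to 7744 cells, for 11.2% of anti-CD137 cells (10.5 to 11.8) and 11.0% of Ig control cells (10.3 to 11.7). Within cluster 0 this share was 7.83% (7.26 to 8.44) and 7.88% (7.29 to 8.50). The gap was 3.33 points with anti-CD137 (2.47 to 4.20) and 3.14 points with Ig control (2.22 to 4.06). As different sequences, 723 were in both treatments, 8.13% of those of anti-CD137 and 9.96% of those of Ig control. The encoded TRA CDR3 recurred for 30.3% of anti-CD137 and 29.0% of Ig control cells, against 26.8% and 27.5% in cluster 0.

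The gaps were of like size between cells that shared a TRBV. Between cells with the same TRBV, the recurrence was 2.98 points higher in cluster 2 with anti-CD137 and 2.94 points with Ig control. It was higher for 19 of 20 TRBV names with at least 200 cells in the anti-CD137 library and for 16 of 19 in the Ig control library. The mean length between cells with the same TRBV differed by -0.074 residues in cluster 2 over cluster 0 with anti-CD137, where 15 of 20 names were shorter, and by -0.127 residues with Ig control, where 16 of 19 were. Among cells with 3000 to 7000 UMIs, which brings the depths of the clusters closer, the recurrence was 2.46 points higher with anti-CD137 and 2.26 points higher with Ig control.

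**Figure D5:**
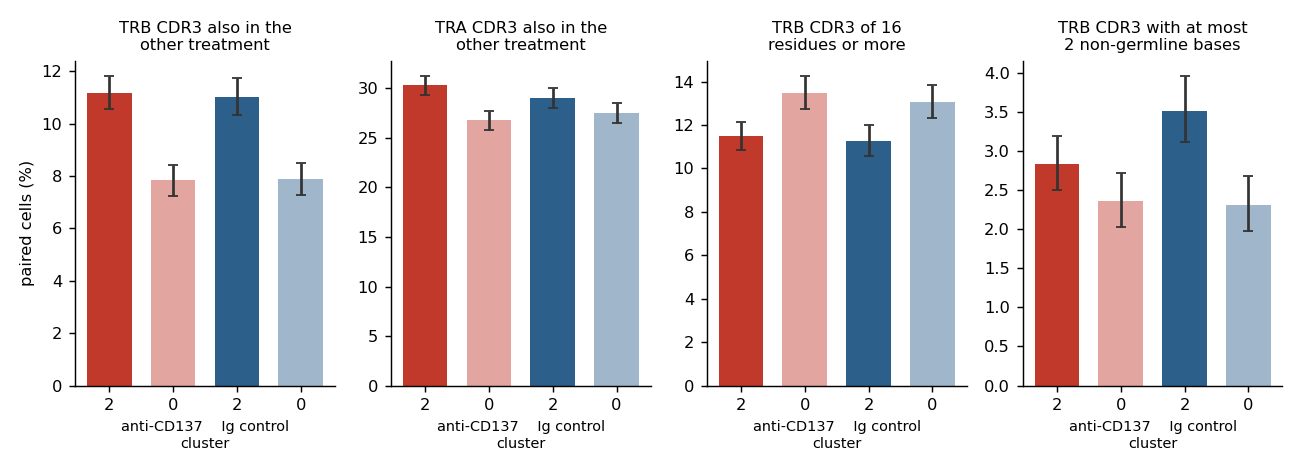
Percent of paired cells whose encoded TRB or TRA CDR3 was also in the same cluster of the other treatment, percent with a TRB CDR3 of 16 residues or more, and percent with at most 2 non-germline TRB bases, for clusters 2 and 0 of the anti-CD137 and the Ig control library. Bars start at 0 and carry exact 95% binomial intervals. The TRB recurrence was 11.2% and 11.0% in cluster 2 and 7.83% and 7.88% in cluster 0.

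Recurrence of a whole receptor was rare. In cluster 2, 8 receptors with the same encoded TRB and TRA CDR3 were in both treatments, in 9 anti-CD137 and 8 Ig control cells, against 2 such receptors in cluster 0. Both-4 and Both-8 are shown because they differ in how far their bases agree. Both-4 had the same TRA bases in both libraries and a different spelling of the TRB join. Both-8 had the same bases in both chains in 1 cell of each library, and a further anti-CD137 cell encoded the same receptor with other bases.
Both-4 anti-CD137 TRB, TRBV12-2 with TRBJ1-4: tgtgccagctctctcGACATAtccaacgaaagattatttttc
Both-4 Ig control TRB, TRBV12-2 with TRBJ1-4: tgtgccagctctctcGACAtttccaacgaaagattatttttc
Both-4 TRA in both, TRAV14-2 with TRAJ48: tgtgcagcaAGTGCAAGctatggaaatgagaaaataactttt
Both-8 TRB in both, TRBV20 with TRBJ1-5: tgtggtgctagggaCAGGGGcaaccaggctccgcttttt
Both-8 TRA in both, TRAV13-1 with TRAJ33: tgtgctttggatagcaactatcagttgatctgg
Cells of cluster 2 shared 2349 barcodes with cells of other libraries, counted over pairs of libraries. In 1146 of these both cells were paired, and 0 had the same clonotype or the same TRB.

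Alpha chains of unconventional T cells were present in a few cells. Invariant natural killer T (iNKT) cells, which see lipids on CD1d, join TRAV11 to TRAJ18 with almost no variation. Such a join was read in 11 of 9967 anti-CD137 cells with a TRA (0.110%, 0.055 to 0.197) and in 1 of 8059 Ig control cells (0.012%, 0.000 to 0.069), a difference of 0.10 points (0.02 to 0.19). In cluster 0 it was read in 3 anti-CD137 and 2 Ig control cells. TRAV1 joined to TRAJ33, the alpha chain of mucosal-associated invariant T cells, was read in 8 anti-CD137 (0.080%) and 2 Ig control cells of cluster 2 (0.025%) and in 0 of 8430 anti-CD137 and 0 of 7953 Ig control cells of cluster 0, with exact upper bounds of 0.044% and 0.046%. Such joins can also arise in ordinary T cells, and the TRAV1 join was not checked at the bases.

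The TRAV11 to TRAJ18 joins are shown so that they can be compared base by base. iNKT-1 to iNKT-4 and iNKT-6 encode 15 residues and were read in 11 anti-CD137 cells in all. iNKT-5 encodes 14 and was read in the 1 Ig control cell. iNKT-1, iNKT-2 and iNKT-3 each stood beside more than 1 TRBV segment, iNKT-1 beside TRBV1, TRBV2 and TRBV13-3, so that none of these was a single clone.
iNKT-1, 4 cells: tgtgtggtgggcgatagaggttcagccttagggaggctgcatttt
iNKT-2, 3 cells: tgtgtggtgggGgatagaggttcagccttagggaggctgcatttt
iNKT-3, 2 cells: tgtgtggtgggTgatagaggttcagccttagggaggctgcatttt
iNKT-4, 1 cell: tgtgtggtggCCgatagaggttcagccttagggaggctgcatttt
iNKT-5, 1 cell: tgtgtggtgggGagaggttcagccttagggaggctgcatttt
iNKT-6, 1 cell: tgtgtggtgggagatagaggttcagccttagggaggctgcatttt
The 15-residue form was therefore read in anti-CD137 cells of cluster 2 and in 0 Ig control cells of it, at 1 library per treatment.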

How the data were processed

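Cell Ranger 3.0.2 and Seurat 4.0.0 were used with build mm10, per the submitters' processing notes. Per the file headers the deposited cell table holds for each cell the UMI count and gene count, the mitochondrial and ribosomal percent, 2 cell cycle score columns, a phase and a cluster. The deposited TCR table gives the count of UMIs and of reads per assembled contig, and lists no more than 2 chains of a kind in a cell. Barcodes, segments and CDR3s were used as the authors deposited them. The sources used here do not say how doublets were treated or which genes made the clusters. Without gene values, doublets were not called again.

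Cells were joined to contigs by library and barcode, with the chain of most UMIs leading. Intervals are Clopper-Pearson ones (scipy 1.17.1), and Newcombe's square-and-add method was used for differences. Expanded and recurring shares are expected values after drawing 7744 cells. Junctions were read against GENCODE M21 segments (GRCm38, the same assembly as mm10, with positions from 1), which held 110 of 111 V names. Chains with the remaining V name, TRBV10, were left out of base counts. Segments named were the 3 most used of each kind and up to 6 per direction past the fold. Clonotypes named were the 3 largest per library and those in both treatments. Members and lists were chosen with earlier results of these data known. The segment comparison, thinning and intervals were tested on simulated data. Segments changed in the simulation were common ones, and the changes were mostly larger than those reported here. Behaviour of the segment rule near its limits was therefore not tested. Scripts used Python 3.11.15, numpy 2.4.6, pandas 2.3.3 and matplotlib 3.10.9. The limits on UMIs per cell, the merged combined name, the TRAV families, the cells with at most 1 TRB for CDR3 features and the comparison within a TRBV were chosen after seeing the data.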

Additional observations from a re-analysis of the deposited data

Results flagged for a closer look

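The share of expanded clones in cluster 2 minus that in cluster 0 had opposite signs in the 2 Teff libraries over all paired cells, and this difference between the libraries was not tested. The share of paired cells in clonotypes of at least 2 cells within the cluster was 0.361 points higher in cluster 2 than in cluster 0 with anti-CD137, and -1.95 points, lower in cluster 2, with Ig control. In 7744 cells of each set these were 0.181 points with anti-CD137, where the interval then included 0 (-0.096 to 0.460), and -1.98 points with Ig control (-2.45 to -1.51). With clone size counted over the whole Teff library the same differences were 0.550 and -1.78 points. With the TRB alone, in 7744 cells of each set, they were 1.30 and -3.19 points. The shares of cluster 2 itself lay close together, at 1.03% with anti-CD137 and 1.27% with Ig control, whereas those of cluster 0 were 0.666% and 3.22%. Beside this, 23.9% of the Ig control cells of cluster 0 had no assembled chain, against 11.4% of its anti-CD137 cells, and the part of that in the result was not tested.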

How the results depend on the processing

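Of the recomputed values or counts for whole comparisons, 57 stayed within counting error or within 1.5 times the count, 14 moved, and 0 reversed where the reported interval left out 0. Differences of anti-CD137 minus Ig control in cluster 2 that moved were these. Among paired cells the cluster share differed by 2.84 points. Among paired cells with at most 1 TRB the mitochondrial percent differed by -0.613 points and phase S by -7.61 points. The paired share differed by 1.09 points for chains of at least 2 UMIs and by 1.65 points at up to 7000 UMIs, and the second TRB by 6.03 points as a mean over UMI bins. With the TRB alone, clone size differed by -1.43 points, sharing with cluster 0 by -0.804 and sharing with the PD1+ sorts by -0.372. Clones of at least 3 cells differed by -0.077 points. At a ratio of 1.5, 1 segment passed between treatments and 0 between clusters, against 7 and 13. With TRAV copies added into families, which leaves fewer segments, 7 passed between clusters, all of them TRAJ or TRBV segments among the 13. Merging does not change those segments, and no TRAV family passed in both libraries. Among cells of 3000 to 7000 UMIs, 9 passed, 7 of them among the 13, and the TRB recurrence gap with anti-CD137 was 2.46 points. For these the cause was not tested unless given. All 138 values of single named segments stayed within counting error. No paired analysis was possible because each group was 1 library. No expression per gene was used, cells were not tied to mice.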
